A study of Mus musculus with 18 samples.

Results

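Aminoacyl-tRNA synthetases are the enzymes that join each amino acid to its transfer RNA. Their genes were taken from the deposited expression table by name: a letter for the amino acid followed by "ars", with a final 2 for the mitochondrial form, together with Farsa, Farsb and Eprs. This gave 37 of the 54532 genes in the table, 20 for the cytosol and 17 for mitochondria. All 37 had a mean of at least 1 FPKM over the 18 libraries, and so all were among the 11084 genes tested. FPKM is a gene's fragments scaled to its length in kilobases and to a denominator set for its library. RNA with poly(A) tails came from KPCA.B, a mouse line that the labels class as high-grade serous ovarian cancer. Its cells expressed the hairpin shControl, labelled Ndufa5 wild type, or 1 of the hairpins shNdufa5_1 and shNdufa5_2 against Ndufa5, an accessory subunit gene of respiratory complex I. Each was grown in medium conditioned by proliferating cells that had received only the solvent (PCM) or by cells made senescent with cisplatin (SCM). Every group, controls included, thus had conditioned medium, mixed in equal parts with fresh high-glucose DMEM with 4% serum, 2 ng/mL of EGF, and insulin with transferrin and selenium. Hairpin and medium gave 6 groups of 3 libraries. Whether replicates were separate cultures is not in the labels, and all p-values thus reflect the spread of these libraries alone, which may be technical.

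A synthetase activates its amino acid with ATP and then transfers it to the matching tRNA, which carries it to the ribosome. In animal cells some of the cytosolic enzymes are held together with 3 scaffold proteins in the multisynthetase complex and others lie outside it. The phenylalanine enzyme is built of the different subunits Farsa and Farsb. Mitochondria use their own set, also made from nuclear genes and imported, to translate the few proteins of the mitochondrial genome, while Gars and Kars each serve both compartments. Many cytosolic synthetase genes are known targets of ATF4, the transcription factor that rises in translation when amino acids run short or mitochondria are impaired and that binds the sequence called CARE.

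Promoter windows of 28 of the 37 genes were matched in RefSeq (GRCm38.p6), each running from 250 bases before to 50 after the start of the transcript. The letters TGATGNAA of CARE, read on both strands, were in 5 of 13 cytosolic windows (Aars, Gars, Iars, Tars and Yars), or 38.5%, against 4.51% of 27025 genes in the promoter table. None of the 15 mitochondrial windows held them. The E-box CACGTG, which Myc and related factors bind, was in 4 of the 13 cytosolic windows and in 1 mitochondrial window, that of Ears2, against 8.09% of all genes. The ETS letters CCGGAAGT were in 2 cytosolic windows (Farsa and Mars) and in that of Rars2, against 4.31%. The NRF1 motif, searched without mismatch on both strands, was found in no member, against 1.07%. No motif contains another, and a match is a description of the window and not a site shown to be bound. The CARE matches of Gars and Tars and the E-box matches that lie before the start are shown because the genes that hold them moved in opposite directions in the comparisons that follow. Each is written 5′ to 3′ on the strand of its gene with the motif in capitals, and both CARE matches read as the reverse complement. Positions are counted from the start of the transcript.
Gars, CARE at -30, chr6:55037961-55037988, plus strand: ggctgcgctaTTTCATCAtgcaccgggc
Tars, CARE at -15, chr15:11399659-11399683, minus strand: aggagtcccgTTGCATCAgctggtt
Aars, E-box at -146, chr8:111033686-111033711, plus strand: tcaaccctgtCACGTGacactccatg
Farsb, E-box at -39, chr1:78488921-78488946, minus strand: agacaggcatCACGTGagacagccca
Iars, E-box at -69, chr13:49682051-49682076, plus strand: ccaatcgccaCACGTGttgtttgtag

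Libraries held 13.8 to 38.9 M (M, mega) fragments by the spacing of low FPKM values, and the deepest were replicate 2 of shControl in each medium. Ndufa5 with shNdufa5_1 stood at -1.39 against shControl in PCM and -1.68 in SCM on the log2(FPKM + 1) scale used for every difference here. Under the label shNdufa5_2 it differed from shControl by only -0.079 in PCM and -0.43 in SCM (limma, adjusted p = 0.647 and 0.0125), so every direction drawn from those libraries rests on a label that the targeted gene bears out weakly. Of 10 epithelial markers, Krt8, Krt18, Krt19, Krt7, Msln and Pax8 were above 7 FPKM in every library, Epcam reached 0.399 and Cdh1 1.37 FPKM at most, and Wt1 and Muc16 were listed at 0 throughout. The summed epithelial markers were 1048 to 1117 FPKM in shControl in PCM, 1618 to 1727 in SCM, 1694 to 1735 with shNdufa5_1 in PCM and 1996 to 2060 in SCM, and 1197 to 1269 in the libraries labelled shNdufa5_2 in either medium. The 6 immune markers, mostly Cd68, summed to 2.01 to 2.20 FPKM in shControl in PCM, 5.92 to 6.96 in SCM, 0.751 to 2.17 with shNdufa5_1 and 6.13 to 10.2 in the libraries labelled shNdufa5_2, with Ptprc, Cd3e, Itgam and Adgre1 at or near 0. Endothelial markers summed to at most 0.148 FPKM and fibroblast markers to 1.29 to 5.05, with Thy1 at 0. What part these shifts have in the differences below was not tested.

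The cytosolic synthetases were abundant and the mitochondrial ones scarce. Sars for serine and Nars for asparagine led with means of 265 and 264 FPKM over the 18 libraries, followed by Gars for glycine at 169, Vars for valine at 151, Wars for tryptophan at 116 and Aars for alanine at 110.2. Farsa, the catalytic subunit of the phenylalanine enzyme, was the lowest cytosolic gene at 17.6 FPKM, while its partner Farsb stood at 44.8. Among the mitochondrial genes other than Lars2, Vars2 was highest at 14.3 FPKM, then Tars2 at 13.2 and Iars2 at 9.33, and Mars2 and Cars2 were lowest at 1.37 and 1.07. The cytosolic mean was 3.57 (Tars over Tars2) to 126 (Nars over Nars2) times the mitochondrial one in 13 of the 14 amino acids with a gene for each compartment. The exception was leucine, with Lars at 0.954 of Lars2, a gene whose counts are uncertain because fragments of ribosomal RNA can fall on it. The ranges of Sars and Nars over the 18 libraries, and those of Mars2 and Cars2, overlapped, so these neighbours are not separated in level. Iars2 shares 2034 bp of exon, 22.9% of its own, with Rab3gap2 on the other strand and Cars2 shares 422 bp with Naxd, so these levels are uncertain. Cars2 and Pars2 had as few as 68 and 73 fragments in a library, while Sars never had under 15985.

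**Figure D1:**
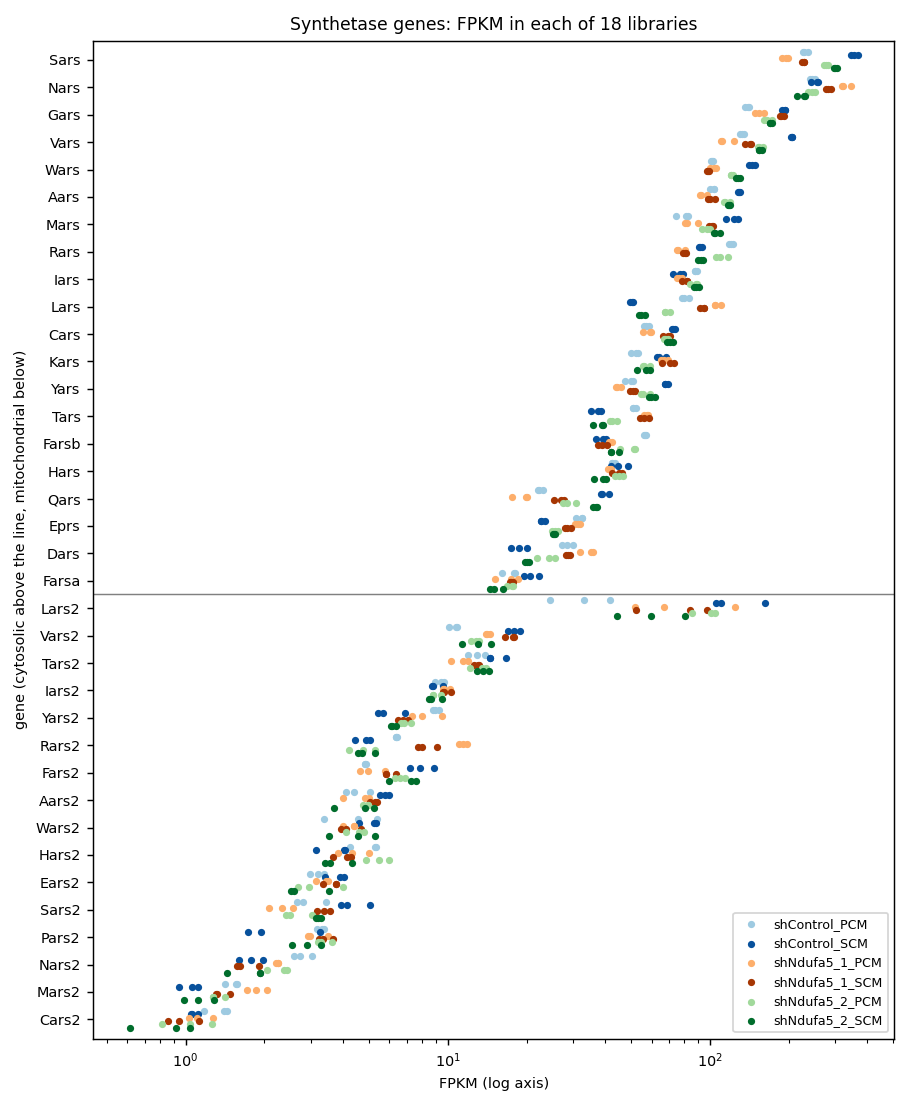
FPKM on a log axis for 36 of the 37 synthetase genes, 1 point per library, coloured by group of 3 libraries; genes are ordered by mean, cytosolic above the grey line and mitochondrial below. Apart from Lars2, whose points run from 24.6 to 163 FPKM, every mitochondrial gene drawn lies below 20 FPKM, and Sars and Nars lie at 189.5 or above in every library.

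In shControl cells SCM moved most synthetase genes, and it moved them in both directions. Of the 37 genes, 17 were higher in SCM and 13 lower at an adjusted p under 0.05 (limma, Benjamini-Hochberg over all genes tested), and the median difference was 0.17. These 30 are 81.1% of the set. Among all tested genes 61.9% were called, 31.7% higher and 30.2% lower, with a median of 0.00. In the cytosolic set 11 rose, 7 fell and only Nars and Hars were not called, with a median of 0.28. As deposited, the summed FPKM of the 20 cytosolic genes went from 1734 ± 14 in PCM to 2051 ± 21.3 in SCM (SD, n = 3 each). The mitochondrial sum without Lars2 went from 85.6 ± 1.52 to 93.6 ± 3.33. Scaling by library total lowered the difference of Sars from 0.62 to 0.37 and that of Lars from -0.66 to -0.91. In shControl the FPKM denominator was above the library's fragments in PCM (15.9 against 15.3 M in replicate 1). In SCM it was below them (13.4 against 15.2 M in replicate 1). Deposited values in SCM thus stand higher against those in PCM than under library-total scaling. The sums were not tested under that scaling, and no rise of either is read from them. In bulk RNA, fewer cells of a type and less RNA per cell cannot be told apart. Genes whose library values are printed for a comparison below were chosen partly because its groups did not overlap. Statements that groups did not overlap thus describe that choice and are not a result, and no share over all genes is given.

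The multisynthetase complex split. Its 8 synthetases held 3 that rose, Qars for glutamine, Mars for methionine and Kars for lysine, and 5 that fell, Lars for leucine, Dars for aspartate, Eprs for glutamate and proline, Rars for arginine and Iars for isoleucine. Qars (ENSMUSG00000032604, chr9:108507706-108515941 in GRCm38, as for all gene positions here) stood at 22.4, 22.2 and 23.2 FPKM in shControl in PCM and at 38.5, 41.1 and 38.8 in SCM. All 3 SCM libraries lay far above those in PCM, a difference of 0.78 ± 0.05 (SE, adjusted p = 5.41e-09), the largest among cytosolic members. Lars (ENSMUSG00000024493, chr18:42202298-42262194) went the other way, from 79.6, 83.7 and 78.4 FPKM to 50.6, 51.1 and 49.6, without overlap, and fell by 0.66 ± 0.03 (adjusted p = 1.82e-10). Mars rose by 0.62 and Kars by 0.32, while Dars fell by 0.58, Eprs fell by 0.46, Rars fell by 0.39 and Iars fell by 0.21. The directions of these 8 genes held when values were scaled by library total, quantile-normalized or freed of the trend with GC content and length, but Kars lost its call under the first 2, at 0.074 and 0.047. The 3 scaffold genes of the complex did not follow one pattern either, since Aimp2 rose by 0.32 (turning to -0.012 with that trend removed) and Aimp1 and Eef1e1 differed by -0.067 and -0.054, neither called.

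The 10 cytosolic synthetases outside the multisynthetase complex, leaving out Farsa and Farsb, mostly rose, 7 of them, while Tars for threonine fell by 0.46. Sars (ENSMUSG00000068739, chr3:108424865-108445209) was at 227, 229 and 238 FPKM in PCM and 355, 368 and 346 in SCM. Vars (ENSMUSG00000007029, chr17:35000987-35016322) was at 133, 135 and 131 and then 204, 206 and 206. Both genes rose without overlap between the media, by 0.62 ± 0.03 (adjusted p = 7.7e-11) and 0.62 ± 0.04 (adjusted p = 1.48e-09), but after quantile normalization Sars stood at 0.0068 and was not called, with Vars at 0.12. Wars rose by 0.50, Yars for tyrosine by 0.45 and Cars for cysteine by 0.34 (0.050 and not called after quantile normalization), whereas Gars at 0.46 and Aars at 0.33 were higher as deposited but stood at -0.050 and -0.049 after quantile normalization. The subunits of the phenylalanine enzyme parted, Farsa rising by 0.25 (not called under library-total scaling or quantile normalization, at 0.011 and 0.15) while Farsb fell by 0.53. Of the genes with CARE shown, Gars was thus higher as deposited and Tars lower, and of those with an E-box there Aars was higher and Farsb and Iars were lower.

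Mitochondrial synthetases also moved in both directions, with 6 higher, 6 lower and 5 not called. Vars2 (ENSMUSG00000038838, chr17:35655634-35667592) was at 10.9, 10.2 and 10.7 FPKM in PCM and 17.9, 18.9 and 17.0 in SCM. Fars2 (ENSMUSG00000021420, chr13:36117412-36726280), the single-chain mitochondrial phenylalanine enzyme, was at 4.87, 4.83 and 4.82 and then 7.87, 8.87 and 7.20. Yars2 (ENSMUSG00000022792, chr16:16302965-16309640) was at 8.94, 8.81 and 9.27 and then 5.64, 6.89 and 5.42. These 3 genes were chosen partly for media that did not overlap. Vars2 rose by 0.71 ± 0.07 (adjusted p = 2.37e-07), Fars2 rose by 0.62 ± 0.08 (adjusted p = 1.33e-05) and Yars2 fell by 0.52 ± 0.08 (adjusted p = 5.12e-05). Exons of Fars2 overlap those of Nrn1 on the other strand over 501 bp, and whether counting kept the strand is not given in the sources used here, so reads of the pair may be mixed. Sars2 also rose (0.44), and Nars2 (-0.45), Rars2 (-0.35) and Mars2 (-0.30) fell, the last turning to 0.085 once the trend with GC content and length was removed. Among the 14 amino acids with a gene for each compartment, both genes were called the same way for alanine, arginine, serine and valine, and in opposite directions for leucine (with Lars2 uncertain), methionine, threonine and tyrosine.

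Direction went with base composition. The 17 genes that rose had a median GC content of 53.0% and the 13 that fell 46.3%, and over the 37 genes the difference ranked with GC content at a Spearman rho of 0.78, given as a description, against 0.53 over 11074 genes of the same libraries. With each library's trend with GC content and exon length removed, 29 members were called, 18 higher and 11 lower, 26 of them from the 30 called as deposited, and Qars stood at 0.78, Sars at 0.52 and Lars at -0.53, while Aars2, Hars2 and Sars2 lost their calls. Scaling by library total moved the median of all genes to -0.20 and that of the synthetases to -0.04, giving 13 higher and 17 lower, and quantile normalization gave 11 and 14. They kept 26 and 22 of the 30 calls. Leaving out 1 library ended the call of Hars2 (shControl_PCM replicate 1 or 2 or shControl_SCM replicate 2, adjusted p up to 0.102), Tars2 (replicate 1 of either medium, up to 0.0908), Pars2 (shControl_SCM replicate 1 or 3, up to 0.0759) and Aars2 (shControl_PCM replicate 3, 0.0608).

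**Figure D2:**
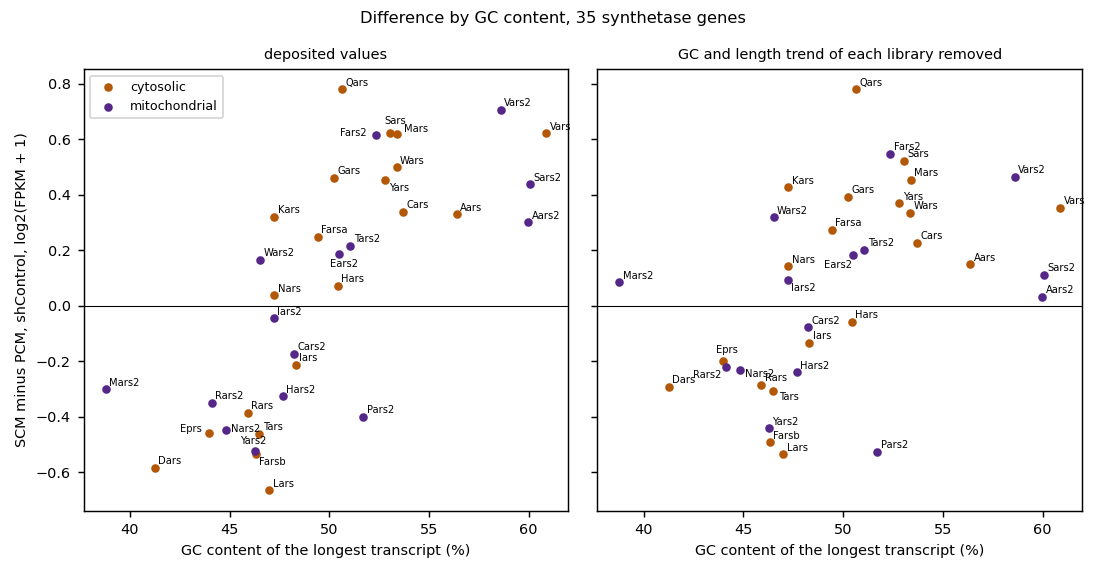
SCM minus PCM in shControl, as a difference of log2(FPKM + 1), against the GC content of the longest transcript for 35 synthetase genes (Lars2 and 1 other gene are not drawn), as deposited (left) and with each library's GC and length trend removed (right). As deposited, genes with low GC content such as Dars and Lars lie below 0 and those with high GC content such as Vars and Vars2 above it; after removal Lars stays at -0.53 and Vars at 0.35, and Mars2 moves above 0.

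With shNdufa5_1, 12 synthetase genes were higher in SCM and 8 lower, 54.1% of the set, with a median of 0.05. Among all genes 42.3% were called, 22.5% higher and 19.8% lower. The rank measure with GC content was 0.71 over the 37 genes and 0.54 over all. Qars rose again, from 19.9, 17.6 and 20.1 FPKM in PCM to 27.1, 25.4 and 27.8 in SCM, without overlap (0.46 ± 0.05, adjusted p = 7.28e-06). Gars (ENSMUSG00000029777, chr6:55038007-55079500) went from 154, 161 and 148 to 191, 185 and 187 FPKM and rose by 0.28 (adjusted p = 5.29e-06), where shControl had gone from 141, 140.2 and 137 to 189.5, 194 and 193. Mars (ENSMUSG00000040354, chr10:127296221-127311786) went from 81.7, 90.0 and 80.5 to 102, 103 and 99.5 FPKM and rose by 0.27 (adjusted p = 0.000432; 0.13 and not called with the GC and length trend removed), against 74.6, 81.0 and 82.3 and 124, 128 and 116 in shControl. In each of these 3 genes every SCM library exceeded every PCM library. Mars shares 68 bp of exon with Ddit3 on the other strand, a stress gene at a mean of 134 FPKM, so its level is uncertain to that extent.

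Mitochondrial members with shNdufa5_1 split evenly, 4 higher and 4 lower. Rars2 (ENSMUSG00000028292, chr4:34614957-34660167) went from 11.1, 11.4 and 11.8 FPKM in PCM to 7.72, 7.97 and 9.09 in SCM, a difference of -0.43 ± 0.07 (adjusted p = 0.000292). Sars2 (ENSMUSG00000070699, chr7:28741992-28753871) went from 2.08, 2.56 and 2.34 to 3.38, 3.17 and 3.55, without overlap between media, and rose by 0.39 (adjusted p = 0.00395), a call lost with the GC and length trend removed (0.21). Mars2 (ENSMUSG00000046994, chr1:55237177-55248470), among the scarcest members, went from 1.71, 2.05 and 1.85 to 1.32, 1.48 and 1.30 FPKM, a difference of -0.28 (adjusted p = 0.0154) that came to 0.0028 with the GC and length trend removed. That removal kept 9 of the 20 calls, made 2 others (Rars and Wars) and turned Aars (-0.011) and Eprs (0.11), whose deposited differences were 0.11 and -0.12. Leaving out 1 library ended the call of Tars2 (any but shNdufa5_1_PCM replicate 1, adjusted p up to 0.174), Nars2 (any but shNdufa5_1_SCM replicate 3, 0.094), Yars2 (shNdufa5_1_PCM replicate 3 or shNdufa5_1_SCM replicate 1 or 3, 0.128), Aars (shNdufa5_1_PCM replicate 1 or 3 or shNdufa5_1_SCM replicate 1, 0.0808) and Mars2 (shNdufa5_1_PCM replicate 2 or shNdufa5_1_SCM replicate 1, 0.06).

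In the libraries labelled shNdufa5_2, 3 genes were higher and 8 lower in SCM, 29.7% of the set, with a median of -0.02, against 22.8% of all genes called, 11.7% higher and 11.1% lower. The rank measure with GC content was 0.53 over the 37 genes and 0.07 over all. Qars, at 27.6, 28.6 and 30.9 FPKM in PCM and 36.7, 36 and 37.1 in SCM, rose by 0.33 (adjusted p = 0.00043) and was thus higher in SCM with every hairpin. Lars, at 67.8, 70.6 and 67.5 and 54.5, 56.5 and 53.8, fell by 0.32 (adjusted p = 1.1e-05). Rars (ENSMUSG00000018848, chr11:35808381-35834506) fell by 0.25 (adjusted p = 0.000176), from 117, 105 and 109 FPKM to 93.0, 90.3 and 94.0, where shControl had gone from 123, 119 and 121 to 91.2, 91.8 and 93.7. Media did not overlap for any of these 3. Dars (ENSMUSG00000026356, chr1:128363707-128417368) went from 25.6, 21.8 and 24.3 to 19.8, 20.1 and 20.4 and fell by 0.24 (adjusted p = 0.00993), a call lost without shNdufa5_2_PCM replicate 1 (adjusted p = 0.0524). Hars2 was the one mitochondrial gene called, at 6.0, 4.88 and 5.48 FPKM in PCM and 3.55, 3.40 and 4.32 in SCM, a difference of -0.44 (adjusted p = 0.00979). It starts 197 bp from Hars, the cytosolic histidine gene on the other strand, and their exons share 195 bp, so reads of the pair may be mixed. Scaling by library total gave 1 higher and 10 lower and quantile normalization 1 and 9, and leaving out 1 library ended the call of Nars (replicate 1 or 2 of either medium, adjusted p up to 0.163) and of Wars (any but shNdufa5_2_SCM replicate 1, 0.129).

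**Figure D3:**
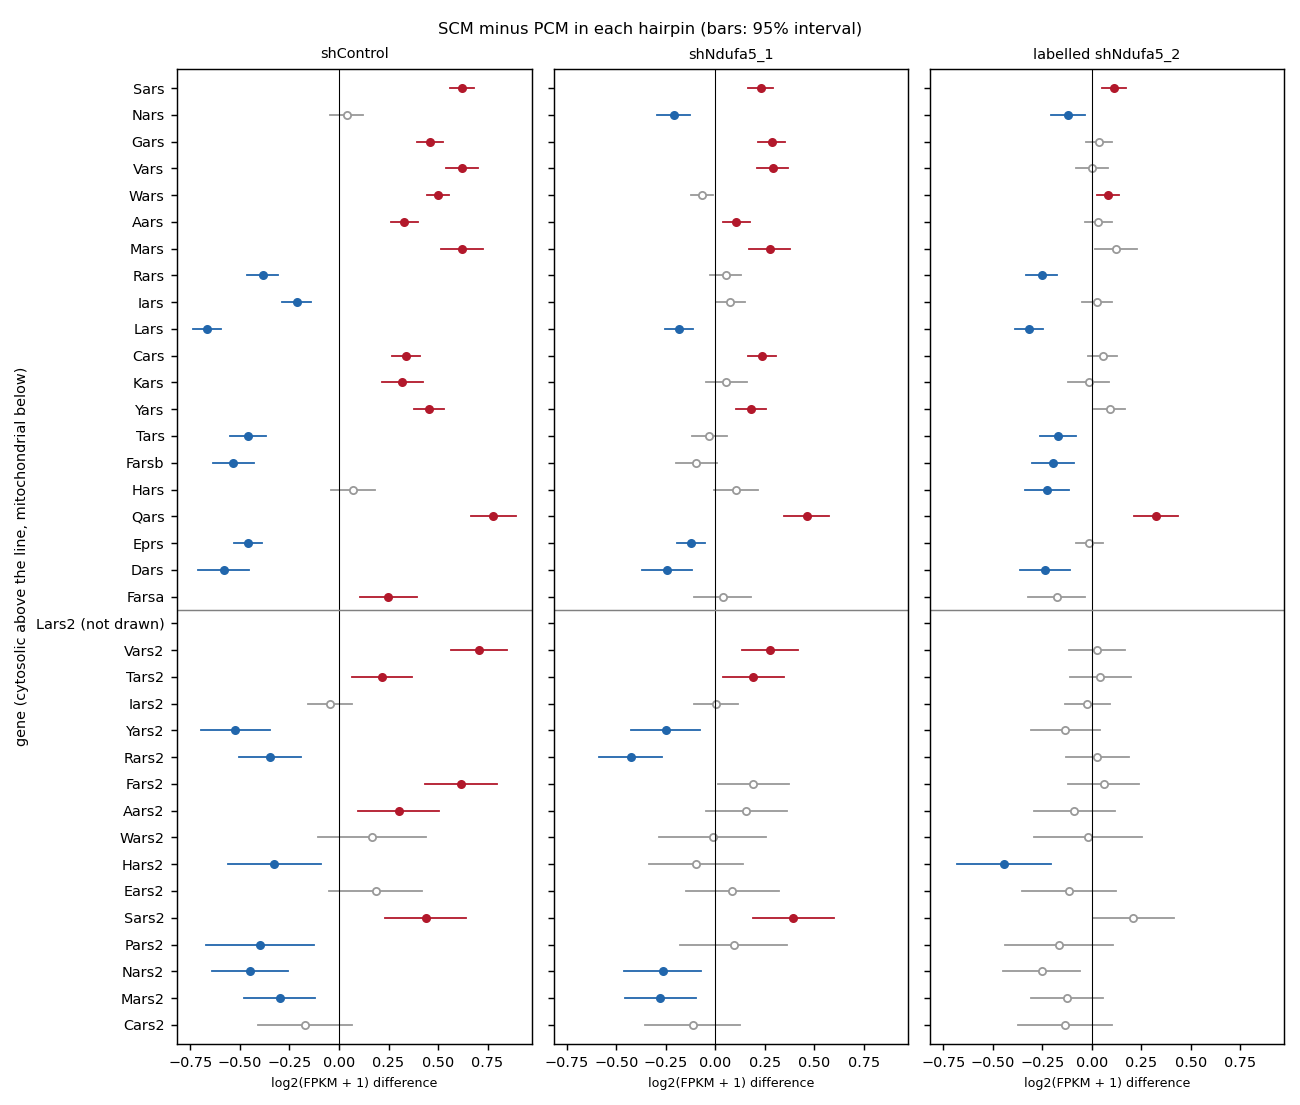
SCM minus PCM for each hairpin, as a difference of log2(FPKM + 1) on 1 shared axis with 95% intervals; red marks genes called higher, blue genes called lower and open grey genes not called, and Lars2 and 1 other gene are not drawn. Calls number 29 of the 35 genes drawn in shControl, 19 with shNdufa5_1 and 11 under the label shNdufa5_2, and Qars is to the right of 0 in all 3 panels.

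No library is shared between the responses of the 3 hairpins, so their calls can be compared. No matching share over all tested genes is at hand, so the agreement is not read as particular to the synthetases. Of the 30 genes called in shControl, 18 were called the same way with shNdufa5_1, which is 60% of the first list and 90% of the 20 in the second. They were 11 that rose (Aars, Cars, Gars, Mars, Qars, Sars, Sars2, Tars2, Vars, Vars2 and Yars) and 7 that fell (Dars, Eprs, Lars, Mars2, Nars2, Rars2 and Yars2), where Tars2 stood at -0.017 in shControl under library-total scaling, Aars and Gars were below 0 there after quantile normalization, and Aars, Eprs and Mars2 changed sign as given above. Of these 18 genes, 16 kept both calls under library-total scaling, 13 after quantile normalization and 7 with the GC and length trend removed (Cars, Gars, Lars, Qars, Rars2, Sars and Vars). In the libraries labelled shNdufa5_2, 9 genes shared their call with shControl, 30% of the one list and 81.8% of the other: Qars, Sars and Wars rose, and Dars, Farsb, Hars2, Lars, Rars and Tars fell. Under the same alternatives 7, 6 and 7 of the 9 kept both calls, with Sars and Wars losing theirs under the first 2.

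The difference between responses was tested directly. With shNdufa5_1, 21 members (56.8%) responded differently from shControl, 8 with a higher SCM minus PCM difference and 13 with a lower one, against 26.2% of all genes, 10.7% and 15.5%. In the libraries labelled shNdufa5_2 there were 26 (70.3%), 9 higher and 17 lower, against 43% of all genes, 18.9% and 24.1%, and all 20 cytosolic genes were among them. The 2 counts use the same shControl libraries. With shNdufa5_1 the difference of responses ranked with GC content at -0.64 over the 37 genes and -0.22 over all. Under the label shNdufa5_2 the values were -0.75 and -0.54. Of the 11 cytosolic genes that rose in shControl, 9 responded less with shNdufa5_1 and all 11 in the libraries labelled shNdufa5_2. Choosing genes by their shControl response and then subtracting that response favours this sign by construction, and of the 3517 genes that rose in shControl among all those tested, 43.9% and 69.1% were called lower in the same way. Under library-total scaling 2 of the 11 (Sars and Wars, 18.2%) and 8 of the 11 (72.7%) were called lower, against 21.4% and 39.7% of those 3517 genes. After quantile normalization it was 1 (Wars, 9.09%) and 4 (Farsa, Mars, Qars and Vars, 36.4%), against 24.3% and 45.1%. With the GC and length trend removed 10 and 11 of the 11 were called lower, against 35.9% and 40.2% of 3514 genes. The response of Mars minus that in shControl was -0.35 with shNdufa5_1 and -0.50 in the other libraries, and that of Qars -0.32 and -0.45. With shNdufa5_1 neither was called under library-total scaling (-0.15 and -0.12) or after quantile normalization (-0.080 and -0.19). For Sars the values were -0.39 and -0.51, turning to 0.029 and 0.010 after quantile normalization, and for Vars -0.33 and -0.62, the former turning to 0.032. Aars and Gars turned likewise, to 0.070 and 0.046 and to 0.14 and 0.021. Wars (ENSMUSG00000021266, chr12:108860030-108894174) had the largest such difference with shNdufa5_1 outside Lars2, -0.57 ± 0.04 (adjusted p = 6.77e-08). It went from 102, 103 and 101 to 142, 145 and 148 FPKM in shControl, from 99.8, 106 and 104 to 99.5, 97.3 and 98.1 with shNdufa5_1 and from 122, 121 and 121 to 126, 130.5 and 128 in the libraries labelled shNdufa5_2. The media are separated in each case, but by a wide gap only in shControl.

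The 7 cytosolic genes that fell in shControl (Dars, Eprs, Farsb, Iars, Lars, Rars and Tars) were called higher by this measure for each hairpin, a sign that the choice by the shControl response again favours. Of the 3346 genes that fell in shControl among all those tested, 29.9% were called higher for shNdufa5_1 and 56.3% for the label shNdufa5_2. Lars stood 0.48 and 0.35 above the shControl response (adjusted p = 2.65e-06 and 3.01e-05), Farsb 0.44 and 0.34, Eprs 0.34 and 0.45, Tars 0.43 and 0.29, and Rars 0.44 and 0.13. The last value for Rars kept its call without shControl_PCM replicate 2, shNdufa5_2_PCM replicate 1 or shNdufa5_2_SCM replicate 2 and lost it without any 1 of the other 9 libraries (adjusted p up to 0.131). The calls of the 7 held under each scaling, except those of Dars, Eprs and Rars in the libraries labelled shNdufa5_2 with the GC and length trend removed. Under library-total scaling 64% and 81.9% of all genes that fell in shControl were called higher, so holding there is not particular to these 7. The shares were 29.6% and 55.5% after quantile normalization and 24.9% and 28.2% with the trend removed. Of the 17 mitochondrial genes 4 (23.5%) and 6 (35.3%) were called, against 26.2% and 43% of all genes, and no difference is read from so few genes. Among them were Vars2 (-0.43 and -0.68) and Fars2 (-0.42 and -0.56), neither of them called with shNdufa5_1 under library-total scaling (-0.24 and -0.25). Yars2 was called for the libraries labelled shNdufa5_2 (0.39). Library-total scaling, which moved the median of all genes by 0.16 and 0.13, gave 12 higher and 3 lower for shNdufa5_1 and 10 and 11 for the other, and quantile normalization gave 8 and 4 and then 10 and 8. In the libraries labelled shNdufa5_2, leaving out 1 library ended the call of Aars2 (shControl_PCM replicate 2 or 3, shControl_SCM replicate 1, shNdufa5_2_PCM replicate 1 or 3 or shNdufa5_2_SCM replicate 2, adjusted p up to 0.0773) and of Nars (replicate 1 or 2 of shControl_PCM or shNdufa5_2_PCM, shControl_SCM replicate 1 or 3 or shNdufa5_2_SCM replicate 2, up to 0.0872).

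Against shControl in PCM, shNdufa5_1 had 9 members higher and 11 lower, 54.1% of the set with a median of -0.03, close to the 52.7% of all genes called, 25.6% higher and 27.1% lower. Rars had the largest fall, from 123, 119 and 121 FPKM to 80.4, 75.4 and 75.7, with no overlap, a difference of -0.64 ± 0.04 (adjusted p = 1.35e-09). Farsb (ENSMUSG00000026245, chr1:78417975-78488897) fell from 56.6, 57.0 and 56.1 FPKM to 41.2, 41.7 and 42.2 (-0.43, adjusted p = 2.57e-06), while Farsa, at -0.028, was not called. Nars (ENSMUSG00000024587, chr18:64499647-64516652) rose from 240.4, 245 and 253 to 322, 347 and 319.6 (0.42, adjusted p = 3.33e-07). It was above Sars in both groups, with means of 246 against 231 FPKM in shControl and 329 against 194 with shNdufa5_1. Lars rose from 79.6, 83.7 and 78.4 to 105, 111 and 105 (0.40, adjusted p = 7.79e-08), while Rars, of the same complex, fell.

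Rars2, the mitochondrial arginine enzyme, moved against Rars. It rose from 6.40, 6.34 and 6.35 FPKM in shControl to 11.1, 11.4 and 11.8 with shNdufa5_1, by 0.76 ± 0.07 (adjusted p = 5.23e-07), and every shNdufa5_1 library was well above every control. Vars2 rose from 10.9, 10.2 and 10.7 to 14.5, 14 and 14.2 (0.39, adjusted p = 0.000144) while Vars fell by 0.21. Sars2 went from 3.43, 2.80 and 2.66 to 2.08, 2.56 and 2.34, a difference of -0.25 (adjusted p = 0.039) that lost its call without replicate 1 of either group, shControl_PCM replicate 2 or shNdufa5_1_PCM replicate 3 (up to 0.184). Nars2 lost its call without any library but shControl_PCM replicate 3 (up to 0.164) and Tars2 without replicate 2 or 3 of either group (up to 0.161). The cytosolic and the mitochondrial gene were called in opposite directions for arginine, asparagine, threonine and valine, and the same way for serine and for leucine, where Lars2 is uncertain.

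In SCM, shNdufa5_1 had 10 members above shControl and 12 below, 59.5% of the set with a median of -0.04, close to the 59.8% of all genes called, 28.7% higher and 31.1% lower. Median GC content was 45.3% for the 10 and 52.9% for the 12. The difference ranked with GC content at -0.70 over the 37 genes and -0.36 over all, against -0.15 and -0.23 in PCM. Lars showed the largest difference of any member other than Lars2 in any comparison, 0.89 ± 0.03 (adjusted p = 7.51e-12), at 50.6, 51.1 and 49.6 FPKM in shControl and 95.1, 92.0 and 95.1 with shNdufa5_1. Dars rose from 17.5, 20.1 and 18.7 to 28.3, 28.7 and 29.3 (0.59, adjusted p = 4.46e-07). Tars (ENSMUSG00000022241, chr15:11382301-11399665) rose from 38.5, 37.4 and 35.3 to 56.0, 54.0 and 58.6 (0.59, adjusted p = 9.8e-09). None of the 3 overlapped with its control. Sars moved the other way, from 355, 368 and 346 to 226, 229 and 228, and fell by 0.64 ± 0.03 (adjusted p = 4.33e-11), and Wars (-0.55), Qars (-0.54), Vars (-0.54) and Yars (-0.42) fell as well. Rars2 rose from 4.43, 4.89 and 5.05 to 7.72, 7.97 and 9.09 (0.68, adjusted p = 1.1e-06), while Fars2 fell from 7.87, 8.87 and 7.20 to 6.33, 5.81 and 5.82 (-0.36, adjusted p = 0.00177), a call lost under library-total scaling (-0.19). Library-total scaling, with the median of all genes at 0.15, gave 17 higher and 6 lower and quantile normalization 14 and 7, with Mars and Rars at 0.058 and 0.074 against -0.27 and -0.20 as deposited. Leaving out 1 library ended the call of Mars2 (any but shControl_SCM replicate 1, adjusted p up to 0.127), Iars (shControl_SCM replicate 1 or 2 or shNdufa5_1_SCM replicate 1 or 3, 0.236), Sars2 (shControl_SCM replicate 1 or shNdufa5_1_SCM replicate 2, 0.0885) and Tars2 (replicate 1 of either group, 0.0962).

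The comparisons of shNdufa5_1 in PCM and in SCM share no library. Here too, no matching share over all tested genes is at hand, so the counts are not read as particular to these genes. Of the 20 members called in PCM and the 22 in SCM, 13 were called the same way (65% and 59.1%): Dars, Lars, Nars, Rars2 and Tars were higher in each medium, and Aars, Qars, Rars, Sars, Sars2, Tars2, Vars and Yars lower, where Rars in SCM was above 0 after quantile normalization. Library-total scaling kept both calls for 10 of the 13, and quantile normalization and removal of the GC and length trend for 9 each. Iars was lower in PCM (-0.20) and higher in SCM (0.085), the latter with overlapping groups and not called with that trend removed.

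The libraries labelled shNdufa5_2 behaved otherwise. In PCM 13 members were above shControl and 8 below, 56.8% of the set with a median of 0.03, against 35.6% of all genes called, 19.3% higher and 16.3% lower. The difference ranked with GC content at 0.71 over the 37 genes and 0.46 over all. Qars rose from 22.4, 22.2 and 23.2 FPKM to 27.6, 28.6 and 30.9 (0.35, adjusted p = 0.000114), Mars from 74.6, 81.0 and 82.3 to 93.3, 97.5 and 100.05 (0.29, adjusted p = 0.000357) and Sars from 227, 229 and 238 to 284, 272 and 279 (0.26, adjusted p = 6.22e-06). Eprs (ENSMUSG00000026615, chr1:185363044-185428360), the fused enzyme for glutamate and proline, fell from 32.5, 31.0 and 32.6 to 26.3, 25.1 and 25.7 (-0.31, adjusted p = 5.37e-06), and none of the 4 overlapped. Rars2 fell from 6.40, 6.34 and 6.35 to 4.20, 4.77 and 5.28 (-0.36, adjusted p = 0.00135), where shNdufa5_1 stood 0.76 above the same control libraries. Fars2 rose from 4.87, 4.83 and 4.82 to 6.91, 6.58 and 6.32 (0.38) and Yars2 fell from 8.94, 8.81 and 9.27 to 6.82, 7.24 and 6.62 (-0.34). Library-total scaling gave 10 and 10, and quantile normalization 7 and 10 with Vars at -0.011 against 0.23 as deposited. After quantile normalization Aars, Gars, Kars, Sars and Yars lost their calls as well, with Sars at 0.0022. The call of Kars was lost without any 1 of the 6 libraries (up to 0.157) and that of Rars without shNdufa5_2_PCM replicate 2 (0.066).

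In SCM the same libraries had 4 members above shControl and 16 below, 54.1% of the set with a median of -0.15, against 33.9% of all genes called, 13.9% higher and 20% lower. The difference ranked with GC content at -0.68 over the 37 genes and -0.41 over all. Farsa (ENSMUSG00000003808, chr8:84856989-84869257) fell from 19.5, 20.7 and 22.3 FPKM to 15.0, 14.6 and 16.3 (-0.42, adjusted p = 0.000215). Vars fell from 204, 206 and 206 to 154, 154 and 159 (-0.40, adjusted p = 2.28e-06), and Sars from 355, 368 and 346 to 305, 299.8 and 297 (-0.24, adjusted p = 1.62e-05), although Sars came to 0.012 after quantile normalization. Hars (ENSMUSG00000001380, chr18:36766528-36783205), which overlaps Hars2, went from 41.9, 48.9 and 44.6 to 40.2, 36.1 and 39.1 (-0.22, adjusted p = 0.00401). No group overlapped its control in these 4 genes. Among mitochondrial members Vars2 fell from 17.9, 18.9 and 17.0 to 14.6, 13.1 and 11.4 (-0.44, adjusted p = 0.000154), and Sars2 from 5.07, 4.13 and 3.91 to 3.15, 3.21 and 3.29 (-0.34, adjusted p = 0.012). Aars2 (ENSMUSG00000023938, chr17:45506841-45520843) went from 5.98, 5.52 and 5.78 to 4.83, 3.70 and 5.26 (-0.28, adjusted p = 0.0325). Library-total scaling gave 8 and 7 and quantile normalization 7 and 6, where Aars, Gars, Nars and Wars turned to 0.077, 0.029, 0.085 and 0.030 from deposited values of -0.12, -0.17, -0.16 and -0.17. Of the 20 calls, 11 held under library-total scaling, 10 after quantile normalization and 12 with the GC and length trend removed, where Hars (-0.14), Sars2 (-0.18) and Aars2 (-0.15) were among those lost. Leaving out 1 library ended the call of Aars2 (any shControl_SCM library or shNdufa5_2_SCM replicate 2, adjusted p up to 0.168), Ears2 (shControl_SCM replicate 1 or 2 or shNdufa5_2_SCM replicate 1 or 3, 0.156), Farsb (shControl_SCM replicate 2 or 3 or shNdufa5_2_SCM replicate 1, 0.121), Lars2 (shControl_SCM replicate 2 or shNdufa5_2_SCM replicate 1, 0.0795), Lars (shNdufa5_2_SCM replicate 2, 0.0555) and Sars2 (shControl_SCM replicate 1, 0.063).

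**Figure D4:**
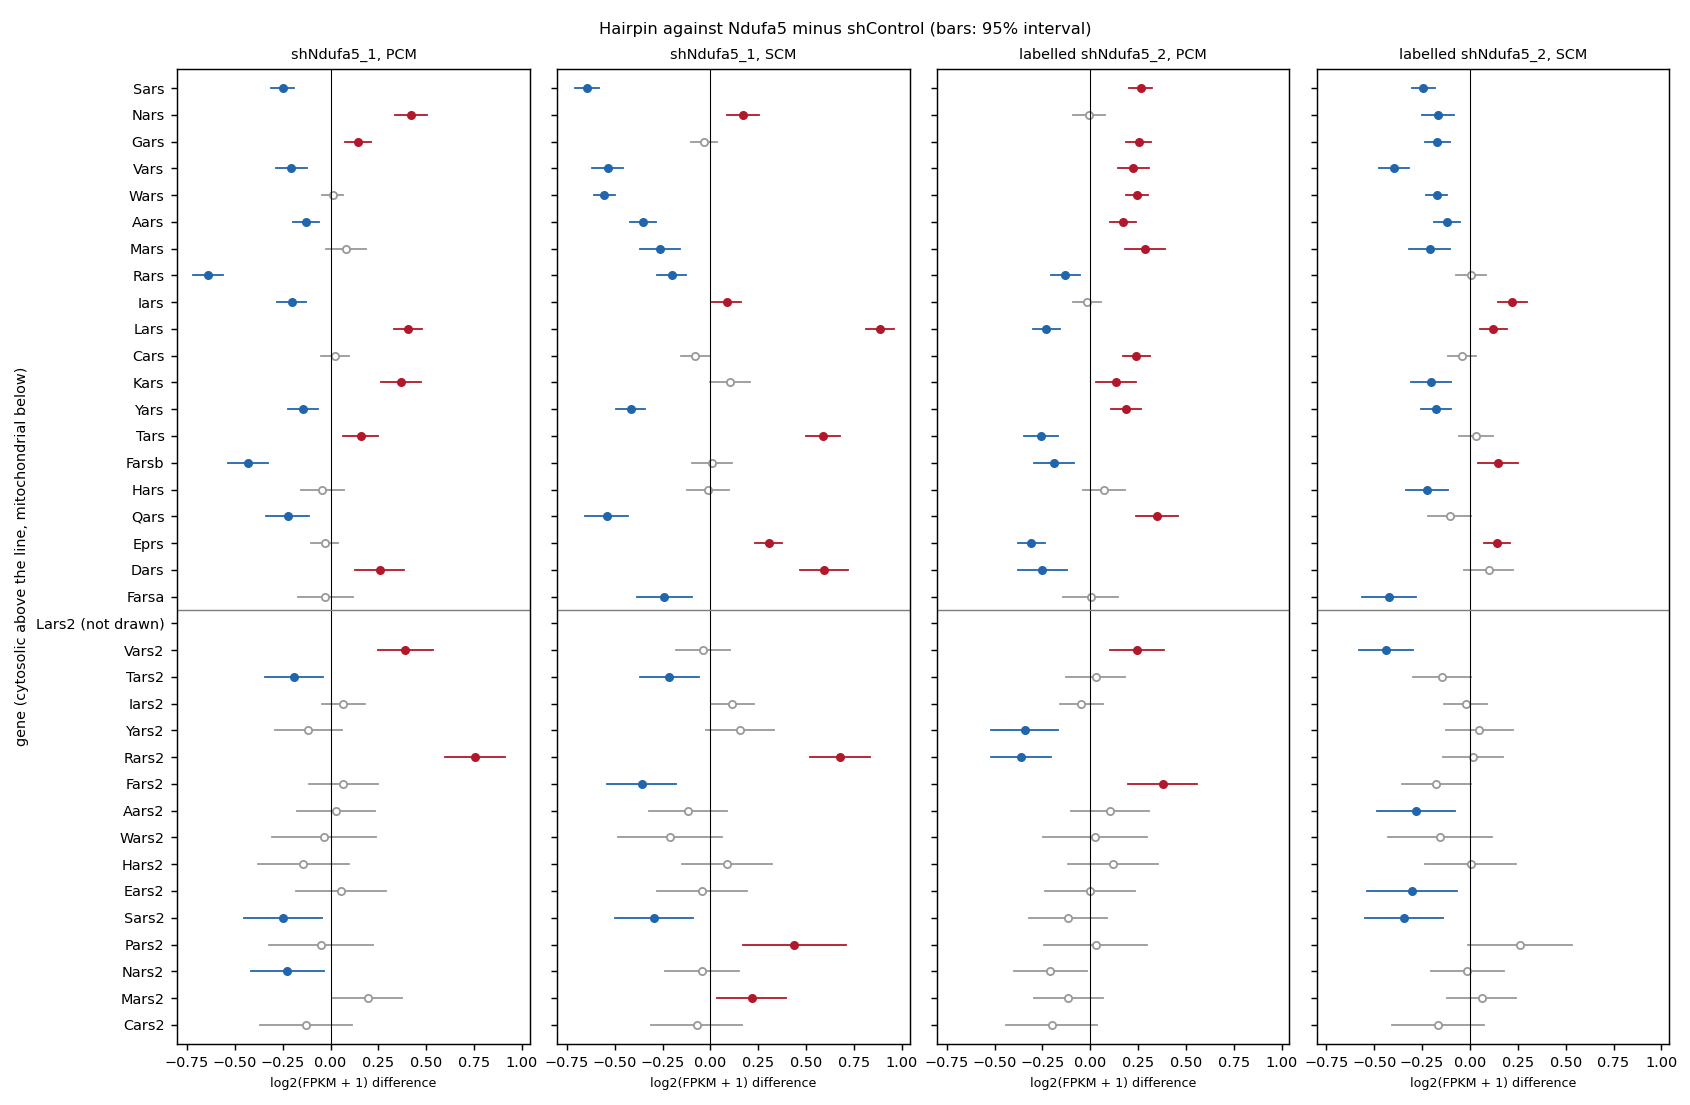
Each hairpin against Ndufa5 minus shControl in each medium, as a difference of log2(FPKM + 1) on 1 shared axis with 95% intervals and the colours red (called higher), blue (called lower) and open grey (not called); Lars2 and 1 other gene are not drawn. Lars and Rars2 lie far to the right of 0 with shNdufa5_1 in both media, and in the libraries labelled shNdufa5_2 Mars and Yars are right of 0 in PCM and left of it in SCM.

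Between PCM and SCM, 13 members of the libraries labelled shNdufa5_2 were called in opposite directions against shControl: Aars, Gars, Kars, Lars2, Mars, Sars, Vars, Vars2, Wars and Yars were higher in PCM and lower in SCM, and Eprs, Farsb and Lars the reverse. No matching share over all tested genes is at hand, so the count is not read as particular to the synthetases. The difference of responses in these libraries was called for 43% of all genes. After quantile normalization Aars, Gars, Sars and Wars in SCM and Vars in PCM changed sign, as did Eprs in SCM with the GC and length trend removed (-0.042). Of the 13, 7 stayed called in opposite directions under library-total scaling, 4 after quantile normalization (Eprs, Farsb, Lars and Vars2) and 8 with the GC and length trend removed, and Farsb was the one gene in all 3. The summed cytosolic FPKM of 1860 ± 21.8 in PCM and 1845 ± 9.53 in SCM in these libraries lay between the shControl sums of 1734 in PCM and 2051 in SCM. With shNdufa5_1 the sums were 1748 ± 42.3 and 1828 ± 14.9. All these sums are of FPKM as deposited, and their order under another scaling was not tested. The FPKM denominators were above the library totals in some groups and below them in others, so no order is read from the sums.

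Lars2 (ENSMUSG00000035202, chr9:123366927-123462666) is set apart because its values may be those of another RNA. It stood at 33.1, 41.8 and 24.6 FPKM in shControl in PCM and 111, 163 and 106 in SCM, at 67.2, 125 and 51.9 and 97.6, 84.1 and 52.4 with shNdufa5_1, and at 101, 105 and 85.3 and 44.3, 80.5 and 59.6 in the libraries labelled shNdufa5_2. The spread within groups was wide, above all with shNdufa5_1 in PCM, and the only compared groups that overlapped were PCM and SCM with shNdufa5_1. Gm23935, a short gene with a sequence like ribosomal RNA, had its lowest and highest values in the same libraries as Lars2, shControl_PCM replicate 3 and shControl_SCM replicate 2. SCM minus PCM in shControl was 1.90 ± 0.31 for Lars2 (adjusted p = 7.05e-05) and 1.96 ± 0.37 for Gm23935 (adjusted p = 0.000295). The differences of Lars2 from shControl in PCM were 1.20 for shNdufa5_1 and 1.55 for the libraries labelled shNdufa5_2, and those of Gm23935 1.29 and 1.69. Against shControl in SCM the libraries labelled shNdufa5_2 stood at -1.04 for Lars2 and -1.10 for Gm23935. Gm15564, another such gene, was listed at 0 to 0.356 FPKM. How much of the Lars2 signal is its own messenger RNA was not tested, and no direction for the enzyme is read from it.

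**Figure D5:**
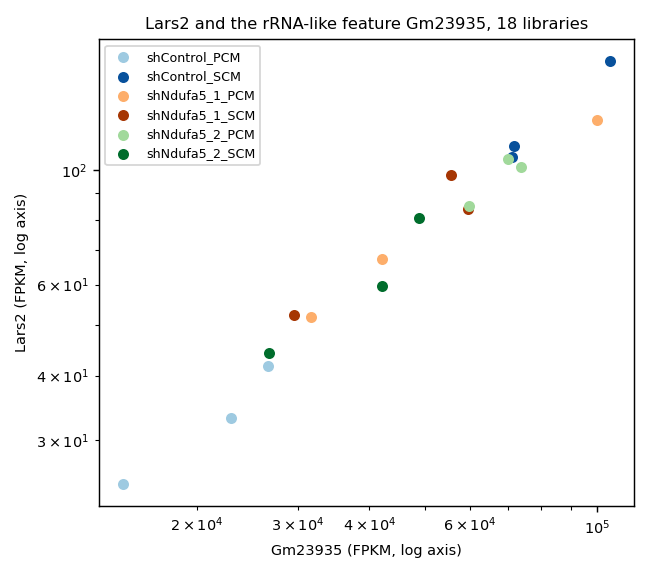
Lars2 against Gm23935 in the 18 libraries, both as FPKM on log axes, coloured by group. The points lie along a rising band from shControl_PCM replicate 3 at 24.6 FPKM of Lars2 to shControl_SCM replicate 2 at 163 FPKM.

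Other genes of the pathway were taken from lists. Among 31 tested genes of the ATF4 and amino acid response, 18 rose in SCM in shControl, 7 fell and 6 were not called, with a median of 0.32, against 31.7% of all genes higher and 30.2% lower. The split was 13 and 11 when scaled by library total, 11 and 13 after quantile normalization and 13 and 9 with the GC and length trend removed, so the list has no direction that holds throughout. Gdf15, a secreted stress hormone, rose by 1.31, Phgdh, the first enzyme of serine synthesis, by 0.95 and Trib3, an inhibitory pseudokinase, by 0.68, while Cebpg, a dimer partner of ATF4, fell by 0.74. These 4 directions held in every scaling tried, though Phgdh and Trib3 came to 0.18 and 0.13 after quantile normalization. The Atf4 messenger itself differed by -0.087 (adjusted p = 0.0778), at 363, 369 and 350.0 FPKM in PCM and 346, 334 and 338 in SCM, and came to -0.34, -0.73 and -0.40 under the 3 alternatives in that order. In PCM Atf4 was lower with shNdufa5_1 (-0.53). With shNdufa5_1, 15 of the 31 rose in SCM and 5 fell, against 22.5% and 19.8% of all genes, and the split was 14 and 5, 11 and 6, and 10 and 6 under those alternatives. Under the label shNdufa5_2, 10 of them rose and 7 fell, against 11.7% and 11.1% of all genes, and the split was 6 and 9, 6 and 7, and 12 and 6.

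The shares of all genes called higher and lower in shControl, 31.7% and 30.2%, apply to the lists that follow. Of 13 tested genes for other steps of aminoacylation and tRNA proofreading, 1 rose (7.69%) and 5 fell (38.5%), including Trnt1 (-0.64), which adds the CCA end to tRNAs, and Sepsecs (-0.58), which makes selenocysteine on its tRNA. Of 12 tested amino acid transporters 4 rose (33.3%) and 6 fell (50%) as deposited, with Slc3a2, the heavy chain of the leucine exchanger, at 0.32 (turning to -0.16 after quantile normalization) and the lysosomal exporter Slc36a1 at -0.57. Scaled by library total, 7 of the 12 were called, all of them lower. Of 12 tested eIF2 kinases and amino acid sensors 3 rose (25%) and 5 fell (41.7%), with Castor1, an arginine sensor, at 0.69 and Impact, an inhibitor of the kinase GCN2, at -0.69.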

How the data were processed

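Poly(A) RNA of 18 KPCA.B libraries (6 groups of 3) was extracted with Trizol and sequenced from NEBNext Ultra II libraries, as the labels' protocols state. The deposited table gives FPKM, normalized by the authors, for 54532 genes. The submitters' processing notes name STAR 2.6.1, DESeq2 and the builds GRCm38 and mm10. Not given in the sources used here were the counting tool, its use of strand and the FPKM denominator. Values up to 20 fragments, read with GENCODE M21 exon lengths, were whole within 0.1 fragments for 99.5% to 99.8% of single-transcript genes, which gave each library's depth of 13.8 to 38.9 M fragments. The denominator read from the same spacing differed from that depth. It was 15.9 M against 15.3 M in shControl_PCM replicate 1 and 13.4 M against 15.2 M in shControl_SCM replicate 1.

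Differences were fitted with limma 3.58.1 in R 4.3.3 on log2(FPKM + 1) over 11084 genes with a mean of at least 1 FPKM, with 6 group means, trended variances and no replicate term, in 9 comparisons. The adjustment was Benjamini-Hochberg within each comparison and the threshold 0.05, two-sided. A fold on this scale understates the change of low genes. The fit was tested on simulated data. The alternatives were another pseudocount (0.1), no filter or a mean of at least 5, scaling by library total, quantile normalization, removal of each library's trend with GC content and exon length, the replicate number as a term, only the groups compared, each library left out, and Lars2 left out. Leaving out both deepest libraries was added after seeing the data. 

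All-library values are given, per comparison, for up to 4 cytosolic and 4 mitochondrial genes called with the largest difference and no overlap between groups, and always for Lars2 beside Gm23935 and Gm15564. 1 member, 1 marker and 1 promoter match are counted but not reported here by name. Other members and up to 4 genes of each other list have 1 value. The members, lists and motifs were chosen with earlier results of these data known. Promoter windows and genes are from RefSeq GRCm38.p6 and GENCODE M21 (GRCm38).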

Additional observations from a re-analysis of the deposited data

Results flagged for a closer look

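The response to SCM differed from that in shControl, by a test of the difference itself (limma, adjusted over all genes tested), for 21 genes under shNdufa5_1 and 26 under the label shNdufa5_2. Both use the same shControl libraries. Values are the SCM minus PCM difference of log2(FPKM + 1) less that in shControl. With shNdufa5_1 the cytosolic genes above the shControl response were Dars 0.34, Eprs 0.34, Farsb 0.44, Iars 0.29, Lars 0.48, Rars 0.44 and Tars 0.43. Those below it were Aars -0.22, Gars -0.18, Kars -0.27, Mars -0.35, Nars -0.25, Qars -0.32, Sars -0.39, Vars -0.33, Wars -0.57 and Yars -0.27. Among mitochondrial genes, Fars2 -0.42, Lars2 -1.91 and Vars2 -0.43 stood below it. Of the 21 calls, 11 held under library-total scaling, 11 after quantile normalization and 20 with the GC and length trend removed. Among the cytosolic genes below the shControl response, only Sars and Wars held under the first and only Wars under the second.

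In the libraries labelled shNdufa5_2 the cytosolic genes above the shControl response were Dars 0.35, Eprs 0.45, Farsb 0.34, Iars 0.24, Lars 0.35, Rars 0.13 and Tars 0.29. Those below it were Aars -0.30, Cars -0.28, Farsa -0.43, Gars -0.42, Hars -0.30, Kars -0.34, Mars -0.50, Nars -0.16, Qars -0.45, Sars -0.51, Vars -0.62, Wars -0.42 and Yars -0.36. Among mitochondrial genes, Rars2 0.38 and Yars2 0.39 stood above and Aars2 -0.39, Fars2 -0.56, Lars2 -2.59 and Vars2 -0.68 below. Of the 26 calls, 20 held under library-total scaling, 17 after quantile normalization and 21 with the GC and length trend removed. Lars2 follows the ribosomal RNA-like Gm23935 in its lowest and highest libraries, and Aars, Gars, Nars, Sars and Vars include the sign changes given under the processing.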

How the results depend on the processing

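The number of the 37 genes called changed by over 1.5 times in 4 cases: with the GC and length trend removed it was 12 for SCM against PCM with shNdufa5_1 (20 as deposited) and 13 for the libraries labelled shNdufa5_2 against shControl in SCM (20), and after quantile normalization 13 for the latter and 12 for the difference of responses with shNdufa5_1 (21). Leaving out 1 library gave 28 to 29 for SCM against PCM in shControl, 15 to 19 with shNdufa5_1 and 8 to 11 in the libraries labelled shNdufa5_2. It gave 17 to 19 for shNdufa5_1 against shControl in PCM and 20 to 22 in SCM, 19 to 20 and 17 to 19 for the libraries labelled shNdufa5_2, and 20 to 23 and 23 to 26 for the differences of responses. Same-numbered libraries did not deviate together (correlations -0.08 to 0.06), so the numbers are not taken to pair them. With the replicate block the counts were 30, 19 and 11 for the medium, 18, 20, 21 and 20 for the hairpins and 21 and 26 for the differences of responses.

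Called genes turned sign in these cases, and the cause was not tested. In SCM against PCM in shControl, Tars2 was -0.017 scaled by library total, Aars -0.049 and Gars -0.050 after quantile normalization, and Mars2 0.085 with the GC and length trend removed. With shNdufa5_1 that removal gave Aars -0.011, Eprs 0.11 and Mars2 0.0028, and against shControl in SCM Mars2 -0.069, where quantile normalization gave Mars 0.058 and Rars 0.074. In the libraries labelled shNdufa5_2 quantile normalization gave Vars -0.011 in PCM and, in SCM, Aars 0.077, Gars 0.029, Nars 0.085, Sars 0.012 and Wars 0.030, and removal of the trend Eprs -0.042. For the differences of responses with shNdufa5_1 quantile normalization gave Aars 0.070, Gars 0.14, Nars 0.087, Sars 0.029 and Vars 0.032, with Gars at 0.024 scaled by library total. Under the label shNdufa5_2 it gave Aars 0.046, Gars 0.021, Nars 0.37 and Sars 0.010, with Nars at 0.033 scaled by library total. Some were called in the new direction (limma). They were Eprs at 0.11 with shNdufa5_1 (adjusted p = 0.0103), Gars at 0.14 (adjusted p = 0.0494) and Nars at 0.37 (adjusted p = 0.00453). Another pseudocount, other filters, only the groups compared, and leaving out Lars2 or both deepest libraries kept every count within 1.5 times. Depth limits the scarce genes most: Cars2 and Pars2 had as few as 68 and 73 fragments in a library.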
